A study of Arabidopsis thaliana with 50 samples.

Results

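Transposable elements (TEs) are DNA segments that can move or copy themselves within a genome, and 31189 of the 68527 features counted in these *Arabidopsis thaliana* libraries are annotated TEs. They were taken by their Araport11 identifiers, which begin with AT, a chromosome number and TE. The other 37338 features are genes. In plants most TEs are kept silent by DNA methylation and by repressive histone marks. DRM2 places methylation that is guided by small RNAs, CMT3 maintains methylation at sites marked by histone H3 lysine 9 methylation, and MORC1 is an ATPase that acts on silencing without large losses of methylation. MED12 and MED13 belong to the kinase module of Mediator, the complex that carries signals from transcription factors to RNA polymerase II.

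Poly(A) RNA from whole seedlings of the Col-0 ecotype at 8 days of age was sequenced in 50 libraries that form 14 conditions. The *SDC:GFP* transgene, a reporter under the promoter of the silenced gene *SDC*, was carried by 26 of them. These are *ddc/med13* (n = 4), *ddc* (n = 4), *morc1/med13* (n = 4), *morc1/med12* (n = 3), *morc1* (replicates 1 to 4 as the control for *morc1/med13* and replicates 5 to 7 as the control for *morc1/med12*) and *SDC:GFP* wild type (n = 4). The other 24 had no transgene, and they are *med12*, *med13* and Col-0 in long days (n = 4 each), and *med12* and Col-0 sampled either after 15 min of light that followed 24 h of dark, or in the dark (n = 3 each). In *ddc* the genes *DRM1*, *DRM2* and *CMT3* are all mutated. Both the wild type with the transgene and the *morc1* line came from crosses with the *ddc* line that carries it, and the *med12* allele in *morc1/med12* and the *med13* allele in *ddc/med13* were made with Cas9. According to the methods, RNA of each biological replicate came from 5 pooled seedlings and all plants grew side by side, so the p-values measure the spread between such pools. In whole seedlings, fewer cells of a type and less RNA per cell cannot be told apart.

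Libraries held between 2767761 and 6786822 counts. The genes that define the genotypes were checked first. *SDC* reached 361 CPM in *ddc* and 43.2 CPM in *morc1* replicates 1 to 4, against 4.17 CPM in *SDC:GFP* wild type, where CPM is a count scaled to the library size with edgeR's TMM factors. *CMT3* (log2 fold change -1.88) and *DRM2* (-0.84) were lower in *ddc*. *MED12* was lower in *med12* (log2 fold change -1.40 in long days, -1.59 in the dark and -1.52 in light). *DRM1* was below the filter on low counts in *ddc*. *MORC1* had 23.9 CPM in *morc1* and 35.4 CPM in *SDC:GFP* wild type (log2 fold change -0.57, edgeR adjusted p = 0.00014, under 1.5-fold). *MED12* was not lower in *morc1/med12* (log2 fold change 0.17 against *morc1*), and *MED13* was not past 1.5-fold in *med13* (0.19), *morc1/med13* (-0.07) or *ddc/med13* (0.37), so the transcript level checks the label of none of these 4 mutants. Of the 2 pollen markers, neither passed that filter in any comparison.

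Very few TEs gave reads. No count was found on 27777 TEs (89.1%) in any library, and 3412 had at least 1. TEs with at least 3 counts in every library of at least 1 condition numbered 344 (1.10%), and 31 of them reached this in all 14 conditions, while 83 did so in exactly 1. A library had a count on 415 to 799 TEs. The TEs took 2030 to 6027 counts per library, and over all libraries 160730 counts, which is 0.0650% of the total. Chromosome 5, which carries 21.4% of the TEs by their identifiers, held 37.6% of TE counts, and chromosome 3, with 20.7% of the TEs, held 11.8%. A single element of chromosome 5, AT5TE72200, held 17.9% of all TE counts, so the chromosome share depends largely on it.

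The counts that did fall on TEs were concentrated on a small number of elements. The 10 most abundant TEs held 35.1% of all TE counts and the 100 most abundant held 67.5%. The most abundant was AT5TE72200, which alone held 17.9% of TE counts. Its mean level lay between 174 CPM in *ddc* and 80.7 CPM in *morc1* replicates 5 to 7. AT4TE18385 (18.3 to 38.9 CPM over the conditions) and AT2TE23870 (16.6 to 34.4 CPM) followed and were both highest in dark-treated Col-0. The other 7 of the 10 had means over the 14 conditions between 5.34 CPM (AT3TE08230) and 13.7 CPM (AT1TE06650). AT1TE41795 varied least among the 10, from 5.37 CPM in *med12* to 7.30 CPM in *ddc*, and AT1TE17050 most, from 1.76 CPM in *morc1/med12* to 12.1 CPM in *SDC:GFP* wild type. A read that overlaps a TE and another feature on the same strand was counted on neither, so these levels leave out transcripts that cover both.

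The number of TEs detected, meaning at least 3 counts in every library of the condition, was 196 in *med12* and 208 in Col-0 after light, and 198 in *med12* and 215 in Col-0 in the dark. In long days it was 119 in *med12*, 131 in *med13* and 116 in Col-0. In the *SDC:GFP* lines it was 78 in *ddc/med13*, 89 in *ddc*, 80 in *morc1/med13*, 113 in *morc1/med12*, 96 and 103 in the control sets of *morc1*, and 92 in *SDC:GFP* wild type. These numbers follow depth in part, since 3 counts are 0.442 CPM in the deepest library and 1.08 CPM in the shallowest. At 1.08 CPM or more in every library, 67 TEs were detected in *ddc*, 71 in *SDC:GFP* wild type, 50 in *med12*, 59 in *med13* and 52 in Col-0 in long days.

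The share of all counts that fell on TEs asks whether TE transcripts rose as a whole. It was 0.0733%, 0.0710%, 0.0706% and 0.0925% in the 4 *ddc* libraries, against 0.0656%, 0.0599%, 0.0635% and 0.0623% in *SDC:GFP* wild type. Every *ddc* library lay above every wild-type library, with replicate 4 far above the other 3. The means were 0.0769% ± 0.0105 in *ddc* and 0.0628% ± 0.00240 in *SDC:GFP* wild type (SD, n = 4 each; exact two-sided permutation test, p = 0.0286, adjusted p = 0.105 over the 11 comparisons). With 4 libraries a group 0.0286 is the smallest p the test allows, and with 3 a group it is 0.1. For single libraries the 95% Wilson interval, which covers counting error only, ran from 0.0892% to 0.0959% in *ddc* replicate 4 and from 0.0702% to 0.0766% in *ddc* replicate 1.

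**Figure D1:**
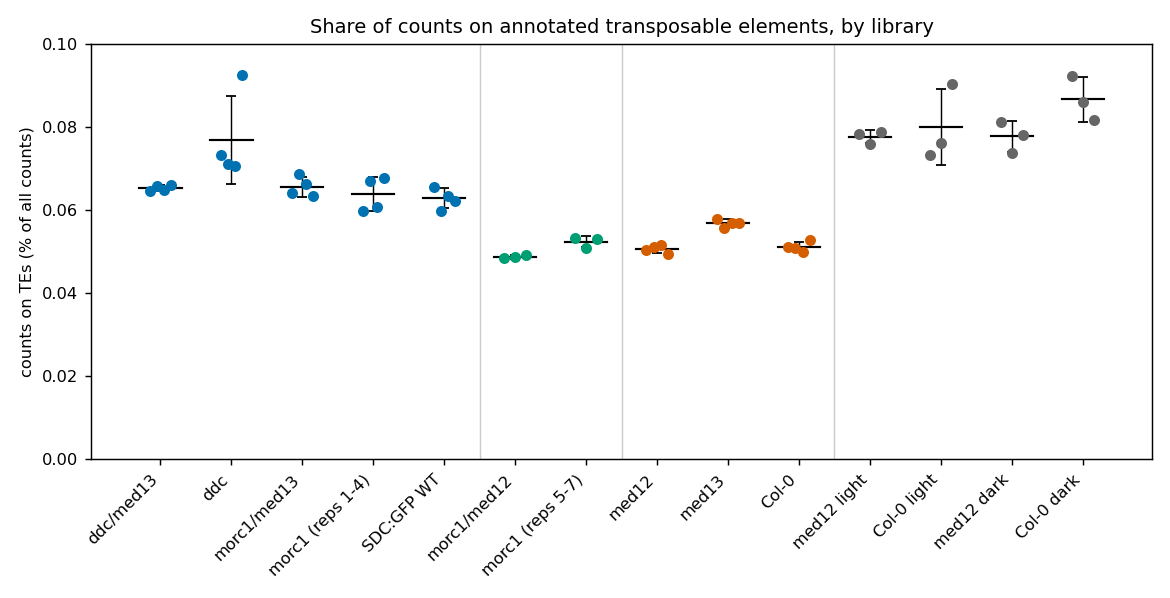
Share of all counts that fell on annotated TEs, in percent, for each library (points) in 14 conditions, with the mean (line) and SD (bars). Grey lines part the sets of libraries that have their own controls. The *ddc* libraries sit between 0.0706% and 0.0925%, all above the *SDC:GFP* wild-type libraries, and the light and dark libraries between 0.0733% and 0.0923%.

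Part of the high value of *ddc* replicate 4 came from 1 element, AT1TE24850, which was singled out after its counts were seen. It had 3, 7, 17 and 251 counts in the 4 *ddc* libraries, 0, 1, 0 and 0 in *ddc/med13*, 2, 1, 2 and 0 in *morc1* replicates 1 to 4, and 0, 0, 0 and 1 in *SDC:GFP* wild type. It fell below the filter for testing. Without it the share was 0.0747% ± 0.00679 in *ddc* and 0.0628% ± 0.00241 in *SDC:GFP* wild type, with no overlap between the libraries (exact permutation p = 0.0286 before adjustment).

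In *ddc/med13* the share was 0.0653% ± 0.000661, against 0.0769% ± 0.0105 in *ddc*, and every *ddc/med13* library was below every *ddc* library (exact permutation test, adjusted p = 0.105). It was 0.0568% ± 0.000956 in *med13*, against 0.0512% ± 0.00120 in Col-0 (adjusted p = 0.105, exact), again with no overlap, whereas *med12* at 0.0506% ± 0.000946 overlapped Col-0 (adjusted p = 0.746, exact). The 3 *morc1/med12* libraries had 0.0484% to 0.0493%, below the 0.0508% to 0.0532% of their *morc1* controls. *morc1* replicates 1 to 4 had 0.0639% ± 0.00410, which overlapped *SDC:GFP* wild type (adjusted p = 0.803, exact), and *morc1/med13* had 0.0656% ± 0.00240. No share passed an adjusted p of 0.05. The share of reads that htseq-count assigned to no feature, a tally the files of the 44 other libraries give and the 6 of *morc1/med12* and its controls do not, was 2.41% to 2.62% of counts in *ddc* and 3.69% to 4.43% in *SDC:GFP* wild type. It was 2.35% to 2.56% in Col-0 in long days and 4.22% to 5.03% in Col-0 in the dark. Its part in the shares was not tested.

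In *ddc* 26 TEs were called, and 8 of the 14 that rose had no or almost no reads in *SDC:GFP* wild type. Of 41 TEs tested against *SDC:GFP* wild type, 14 rose and 12 fell by more than 1.5-fold with an adjusted p under 0.05 (edgeR quasi-likelihood test with Benjamini-Hochberg adjustment over all features). In all 26 the libraries of the groups did not overlap, nor did they in AT1TE88825, AT2TE23870 and AT5TE11225, which were not called. The share of all features without overlap is not given, so here and below lack of overlap is a description. Of all 19203 features tested, 12.4% rose and 14.8% fell, 27.3% in all. Of the 41 TEs, 12 passed the filter only through the *ddc* libraries and 15 only through the wild type, so TEs that are high in one genotype alone were favoured among those tested. Without *SDC:GFP* wild-type replicate 3, and with the filter applied anew, 22 TEs rose.

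The TEs that rose fall into a set of 8 with 3 or fewer counts in all *SDC:GFP* wild-type libraries together, and 6 with a measurable level there. AT3TE64435 had 21, 29, 29 and 21 counts in *ddc*, against 0 in each wild-type library, and AT3TE45330 had 23, 28, 24 and 21 against 0. The first was at least 9.30-fold and the second at least 8.96-fold higher in *ddc*, taking 3 counts per library as the floor. AT2TE78210 (16, 24, 15 and 33 counts in *ddc*), AT3TE63950 (15, 18, 15 and 14) and AT2TE02290 (12, 14, 12 and 21) were also at 0 in every wild-type library. Their lower bounds were 8.12-fold, 5.79-fold and 5.48-fold.

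The other 3 of the 8 had 1 or 2 counts in the wild type. AT1TE58825 had 18, 23, 24 and 22 counts in *ddc*, against 0, 0, 0 and 1 in *SDC:GFP* wild type, a ratio of 97.3 with a 95% counting interval of 17.0 to 3887. AT2TE08225 had 16, 20, 18 and 22 counts, against 0, 1, 0 and 1, a ratio of 42.5 (11.4 to 357). AT5TE23185 had 11, 12, 17 and 15 counts, against 0, 1, 0 and 1, a ratio of 30.8 (8.12 to 260). The 8 TEs had adjusted p-values between 3.5e-07 (AT1TE58825) and 1.8e-05 (AT2TE02290) in edgeR's test. All 8 stood at 4.75 to 8.60 CPM in *ddc*, and by their identifiers they lie on chromosomes 1, 2, 3 and 5.

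Among the 6 TEs with reads in the wild type, the increases were smaller and the most abundant TE was one of them. AT5TE72200 had 172, 145, 173 and 206 CPM in *ddc*, against 119, 110, 106 and 105 CPM in *SDC:GFP* wild type, a log2 fold change of 0.67 ± 0.09 (SE, n = 4 each; edgeR adjusted p = 2.3e-05). That 1 element made up 63.9 of the 164 CPM by which the summed TE level of *ddc* exceeded that of the wild type. AT1TE06650 had 15.2, 17.1, 15.0 and 25.9 CPM in *ddc*, against 6.90, 3.95, 6.89 and 5.42 CPM (log2 fold change 1.67 ± 0.23, edgeR adjusted p = 4.4e-05), and AT5TE72580 had 15.9 ± 3.55 CPM against 7.46 ± 0.854 CPM (1.09 ± 0.19). AT4TE10030 was even across libraries, with 9.38, 8.71, 9.41 and 9.41 CPM in *ddc*, against 1.64 to 2.71 CPM in wild type (2.04 ± 0.22). AT4TE12660 and AT2TE28025 rose most in replicate 4, the library with the highest TE share. AT4TE12660 had 11, 11, 14 and 38 counts in *ddc*, against 3, 7, 0 and 5 in wild type, and AT2TE28025 had 11, 13, 17 and 39, against 5, 1, 4 and 0.

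**Figure D2:**
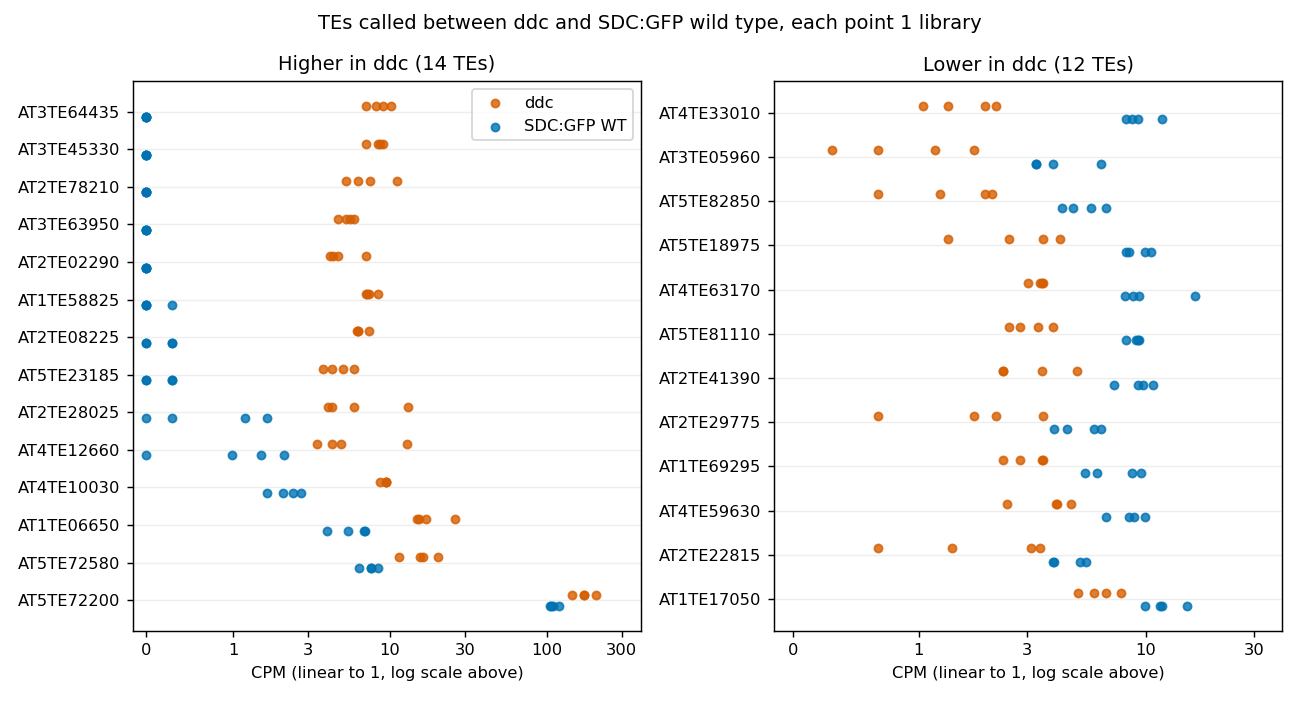
Level of the 26 TEs called between *ddc* (orange) and *SDC:GFP* wild type (blue), in CPM on an axis that is linear to 1 and logarithmic above, with 1 point for each of 4 libraries a genotype. On the left are the 14 TEs higher in *ddc*, 5 of which have 0 CPM in every wild-type library, and on the right the 12 that are lower.

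The 12 TEs that fell had log2 fold changes from -2.49 to -0.90. AT4TE33010 had 5, 7, 3 and 4 counts in *ddc*, against 28, 27, 29 and 39 in *SDC:GFP* wild type (log2 fold change -2.49 ± 0.27, edgeR adjusted p = 4.8e-06). AT5TE18975 had 9, 8, 12 and 4 counts, against 32, 27, 28 and 33 (-1.68 ± 0.27), and AT4TE63170 had 9, 11, 10 and 9, against 50, 29, 27 and 31 (-1.64 ± 0.28). AT3TE05960, AT5TE82850, AT5TE81110, AT2TE41390, AT2TE29775, AT1TE69295, AT4TE59630, AT2TE22815 and AT1TE17050 made up the rest, with means of 0.975 to 6.35 CPM in *ddc* and 4.22 to 12.1 CPM in the wild type.

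Long-day Col-0, which has no transgene, was also used in place of *SDC:GFP* wild type as the control. Its libraries held 5696151 to 6116629 counts, against 3222705 to 3492942 in *SDC:GFP* wild type. The 4 green shoot markers summed to 485 to 527 CPM in Col-0, 1046 to 1137 CPM in *SDC:GFP* wild type and 960 to 1155 CPM in *ddc*. For the 3 root markers these sums were 299.4 to 328.5, 511.4 to 556.3 and 507.7 to 572 CPM. The part of these differences was not tested. The comparison with Col-0 uses the same *ddc* libraries by which these TEs had been called. That favours higher values in *ddc* for the rises and lower values for the falls, so the values are a description. The share over all features is not given for this control. All 14 that rose could be tested, and 13 were called higher in *ddc*, with AT4TE12660 short of the threshold (log2 fold change 0.82, adjusted p = 0.114 in edgeR). Of the 12 that fell, 8 could be tested. AT4TE33010 was called lower (-1.59) and AT1TE17050 higher in *ddc* (1.18, edgeR adjusted p = 0.0022). AT2TE22815 had a log2 fold change of -0.62 short of the threshold, and the other 5 were between 0.16 and 0.36 and not past it. The median of the mean levels of these 12 was 2.96 CPM in *ddc*, 2.99 CPM in *ddc/med13*, 2.61 CPM in Col-0 and 2.64 CPM in *morc1* replicates 5 to 7, but 8.93 CPM in *morc1* replicates 1 to 4, 6.55 CPM in *morc1/med13* and 8.70 CPM in *SDC:GFP* wild type. It was 3.71 to 4.51 CPM in the 4 conditions of the light experiment. The 3 conditions above 6 CPM had 3.34% to 4.61% of reads on no feature, against 2.20% to 2.66% in *ddc/med13* and *ddc*, 2.35% to 2.56% in long-day Col-0 and 3.45% to 5.03% in the light experiment. The part of this in the falls was not tested.

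**Figure D3:**
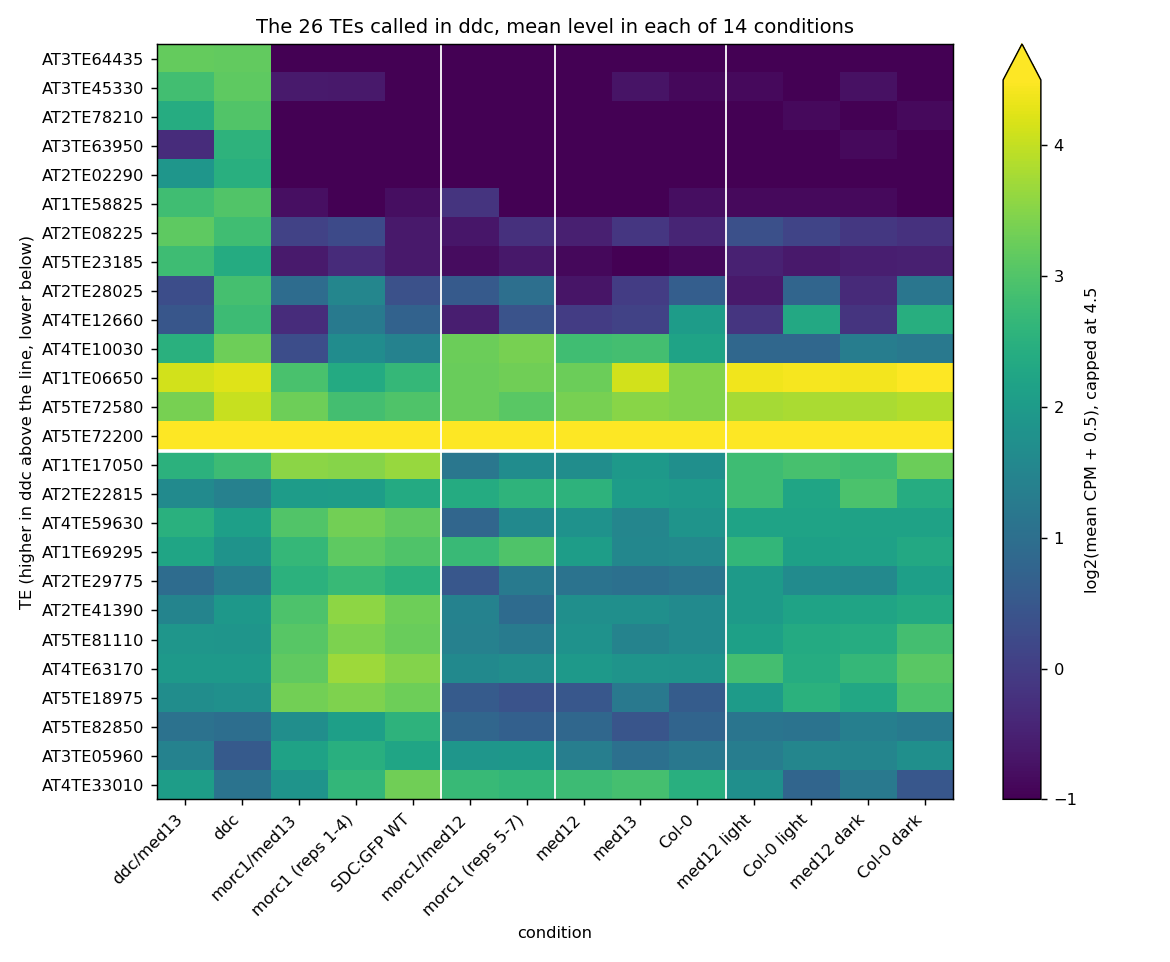
Mean level of the 26 TEs called in *ddc* (rows; higher in *ddc* above the white line, lower below) in the 14 conditions (columns), as log2(mean CPM + 0.5) with the colour capped at 4.5. The top 8 rows stand out in *ddc/med13* and *ddc* only, apart from AT3TE63950, which stands out in *ddc* alone, and the lower rows are bright in the 3 conditions *morc1/med13*, *morc1* replicates 1 to 4 and *SDC:GFP* wild type.

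Outside *ddc* and *ddc/med13* the 8 TEs stayed near 0 throughout. None of them reached a mean of 1 CPM in any of the other 12 conditions, in which their summed level lay between 0.238 CPM in *med12* and 1.12 CPM in *morc1* replicates 1 to 4, against 53.6 CPM in *ddc*. *SDC:GFP* wild type is among these 12, and the 8 were chosen by their low counts there. AT3TE64435 and AT2TE02290 had no read in any of those 12 conditions.

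*ddc* was also set directly against *morc1* replicates 1 to 4, a comparison added after these values were seen. It uses the same 4 *ddc* libraries by which the 14 TEs had been called, which favours higher values in *ddc* for these and lower values for the TEs called as falls, so the values are a description. All 14 TEs that rose in *ddc* were higher in *ddc* than in *morc1* replicates 1 to 4, with log2 fold changes from 0.70 (AT5TE72200) to 7.75 (AT3TE64435). *morc1* replicates 5 to 7 were not part of that fit. AT4TE10030 had 10.7, 10.2 and 8.85 CPM in them and 9.59, 8.60 and 9.13 CPM in *morc1/med12*. In *ddc* it had 9.38, 8.71, 9.41 and 9.41 CPM. Of all 19182 features, 12% were higher and 15.3% lower in *ddc* in that comparison (edgeR). Of the 12 that fell in *ddc*, 11 could be tested and 10 were lower in *ddc* than in *morc1*.

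In *ddc/med13* 5 of the 14 TEs called higher in *ddc* were lower than in *ddc*, and the other 9 were not called. The 14 were called with the same *ddc* libraries that are the control here, which favours falls among them, so their count is a description. Of 40 TEs tested in *ddc/med13* against *ddc*, 1 rose and 5 fell, where 7.9% of all features rose and 7.1% fell (15% in all). Of the 40, 5 passed the filter only through *ddc/med13* and 12 only through *ddc*, which favoured falls. AT3TE63950 had 1, 3, 0 and 0 counts in *ddc/med13*, against 15, 18, 15 and 14 in *ddc*, a log2 fold change of -3.96 ± 0.55 (edgeR adjusted p = 0.00034). AT2TE28025 had 1, 2, 3 and 4 counts, against 11, 13, 17 and 39 (-3.10 ± 0.53), and AT4TE12660 had 1, 9, 0 and 2, against 11, 11, 14 and 38 (-2.74 ± 0.69). AT4TE10030 was lower by less, at 5.12 ± 1.95 CPM in *ddc/med13* and 9.23 ± 0.348 CPM in *ddc* (-0.81 ± 0.26, adjusted p = 0.031), and 7 of its 14 alternative fits missed the threshold. AT5TE72580 also fell (-0.66 ± 0.21), with libraries that overlapped.

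Among the 9 not called, AT3TE64435 had 8.64 CPM in *ddc/med13* and 8.60 CPM in *ddc*, and AT5TE72200 had 140 ± 5.76 CPM in *ddc/med13* and 174 ± 25.0 CPM in *ddc* (log2 fold change -0.29 ± 0.09, adjusted p = 0.023, under 1.5-fold). The one rise was AT2TE06390, with 20, 9, 37 and 41 counts in *ddc/med13*, against 0, 1, 1 and 12 in *ddc* (2.72 ± 0.72, adjusted p = 0.014), where replicate 4 of *ddc* overlapped *ddc/med13*. Without *ddc* replicate 4 or replicate 1, 3 TEs fell in this comparison, and without *ddc* replicate 1 or 2 or *ddc/med13* replicate 3, 2 rose.

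In *morc1* only AT4TE04415 rose and only AT4TE33010 fell among 39 TEs tested, against 2.57% of all 19273 features called, 1.19% up and 1.37% down. AT4TE04415 had 20, 25, 25 and 17 counts in *morc1*, against 0, 0, 2 and 1 in *SDC:GFP* wild type, a ratio of 28.4 with a 95% counting interval of 9.39 to 140 (log2 fold change 4.61 ± 0.48, edgeR adjusted p = 9.6e-07). It was called in each of the 15 alternative fits, with log2 fold changes from 2.99 to 5.53. AT4TE04415 had 5, 2, 9 and 4 counts in long-day Col-0 (0.314 to 1.45 CPM). It was also present in *morc1* replicates 5 to 7 at 4.86 CPM, in *ddc* at 2.20 CPM and in *ddc/med13* at 3.59 CPM, and it was lower in *ddc* than in *morc1* (log2 fold change -1.54 ± 0.29). Its level was 3.43 CPM in *morc1/med13* and 3.86 CPM in *morc1/med12*. AT4TE33010 had 13, 23, 24 and 16 counts in *morc1*, against 28, 27, 29 and 39 (-0.73 ± 0.22, adjusted p = 0.029). This call was lost without replicate 1 or 4 of either genotype, and against long-day Col-0 the log2 fold change was 0.20.

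In long days *med12* raised 5 TEs and lowered 8 of the 59 tested, and *med13* raised 9 and lowered 4. For *med12* 7.66% of all 20788 features rose and 5.12% fell (12.8% in all), and for *med13* 7.16% rose and 6.27% fell (13.4% in all). In *med12*, 5 of the 59 passed the filter only through the mutant and 13 only through Col-0, and in *med13* 6 and 6. The same Col-0 libraries served as the control of both mutants, so the values are given side by side.

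AT3TE46630 showed the largest difference in both. It had 9, 13, 11 and 11 counts in *med12* and 8, 14, 15 and 16 in *med13*, against 1, 0, 0 and 0 in Col-0. The ratio was 42.9 in *med12* (95% counting interval 7.30 to 1730) and 49.1 in *med13* (8.44 to 1975), with an edgeR adjusted p of 3.1e-05 in *med12* and 2.0e-05 in *med13*. Its mean was 1.73 CPM in *med12* and 1.98 CPM in *med13*, low levels for a called TE.

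AT4TE12660, the TE that rose in *ddc*, was lower in both *med* mutants. It had 5, 0, 4 and 3 counts in *med12* (log2 fold change -2.87 ± 0.51) and 2, 3, 7 and 3 in *med13* (-2.64 ± 0.49), against 18, 29, 12 and 31 in Col-0. AT5TE37605 had 13, 1, 5 and 4 counts in *med12* (-1.98 ± 0.44) and 4, 4, 8 and 3 in *med13* (-2.32 ± 0.45), against 21, 28, 19 and 23 in Col-0. AT5TE34945 had 9, 10, 11 and 7 counts in *med12* (-1.09 ± 0.25) and 8, 13, 6 and 10 in *med13* (-1.16 ± 0.25), against 18, 23, 16 and 21. Each of these 3 TEs was below every Col-0 library in every library of both mutants.

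AT2TE26610 had 3, 1, 1 and 1 counts in *med12* (-3.01 ± 0.62), against 17, 9, 12 and 13 in Col-0, and in *med13* it had 11, 2, 4 and 1 (-1.57 ± 0.50), where replicate 1 overlapped Col-0. AT4TE10320 rose in both, to 2.44 ± 0.385 CPM in *med12* and 2.78 ± 0.528 CPM in *med13*, against 1.09 ± 0.251 CPM in Col-0, and so did AT4TE10030, to 6.31 to 6.94 CPM in *med12* and 5.97 to 7.10 CPM in *med13*, against 4.04 ± 1.02 CPM in Col-0. AT1TE70175 rose in *med12* to 3.78 ± 1.34 CPM and in *med13* to 2.50 ± 1.66 CPM, against 0.966 ± 0.320 CPM, with libraries of *med13* that overlapped Col-0.

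Some TEs were called in a single *med* mutant. AT1TE06650 had 103, 121, 107 and 123 counts in *med13*, against 64, 75, 49 and 72 in Col-0 (log2 fold change 0.71 ± 0.12, edgeR adjusted p = 0.00054), and a mean of 9.13 CPM in *med12*, against 10.5 CPM in Col-0. AT2TE16940 (0.89 ± 0.18), AT5TE32420 (1.17 ± 0.24) and AT3TE08245 (0.64 ± 0.17) also rose in *med13*. AT2TE22815 (0.68 ± 0.20) rose in *med12*, and AT5TE56255 (-0.84 ± 0.21), AT2TE69230 (-1.04 ± 0.37) and AT5TE10380 (-0.82 ± 0.27) fell there, AT2TE69230 and AT5TE10380 with libraries that overlapped, and AT5TE10380 was named after its values were seen. AT3TE44900 went opposite ways, with 8, 5, 10 and 7 counts in *med12* (-0.88 ± 0.32) and 31, 21, 21 and 29 in *med13* (0.80 ± 0.27), against 7, 15, 18 and 15 in Col-0. Its libraries in *med12* and Col-0 overlapped, its rise in *med13* missed a threshold in 7 of 13 alternative fits, and the difference between the 2 mutants was not tested. Without *med12* replicate 1 or Col-0 replicate 2, 5 TEs fell in *med12*.

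In *morc1/med12* no TE rose and 4 of 37 fell against *morc1* replicates 5 to 7, where 5.48% of all 20168 features were called, 1.74% up and 3.75% down. For the rises edgeR's 0 compares with 2 TEs called by DESeq2, and 6 of the 37 had an unadjusted p under 0.05 in either direction. Of the 37, 3 passed the filter only through *morc1/med12* and 11 only through *morc1*, which favoured falls. AT1TE53070 had 5, 3 and 6 counts in *morc1/med12*, against 17, 16 and 19 in *morc1* (log2 fold change -1.96 ± 0.34, adjusted p = 0.0071). AT5TE34945 had 7, 7 and 5 counts, against 25, 16 and 21 (-1.78 ± 0.32), and AT2TE26610 had 8, 8 and 8, against 12, 34 and 44 (-1.99 ± 0.47). AT2TE18240 had 3, 3 and 6 counts, against 12, 13 and 10 (-1.61 ± 0.39). In all 4 the libraries did not overlap. AT2TE26610 and AT2TE18240 each missed a threshold in 5 of 10 alternative fits. Without *morc1* replicate 6 or *morc1/med12* replicate 2, 2 TEs fell, and without *morc1* replicate 5 or 7 or *morc1/med12* replicate 2, 1 rose.

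In *morc1/med13* 4 TEs rose and 2 fell of 42 tested, against 18.9% of all 19201 features called, 7.6% up and 11.3% down. Of the 42, 8 passed the filter only through *morc1/med13* and 4 only through *morc1*. AT3TE30150 had 13, 11, 12 and 11 counts in *morc1/med13*, against 5, 7, 6 and 7 in *morc1* replicates 1 to 4 (log2 fold change 0.98 ± 0.24, edgeR adjusted p = 0.014). AT2TE16940 (1.15 ± 0.30) and AT5TE58305 (1.11 ± 0.29) rose with no overlap between libraries and AT1TE88825 (0.62 ± 0.23) with overlap. AT2TE41390 had 27, 22, 28 and 15 counts, against 42, 38, 30 and 41 (-0.63 ± 0.20, adjusted p = 0.026), and AT4TE33010 had 13, 11, 8 and 7, against 13, 23, 24 and 16 (-0.87 ± 0.29) with libraries that overlapped. The number that fell was 0 without *morc1* replicate 2, 1 without *morc1* replicate 4 and 4 without *morc1/med13* replicate 2, and without that last library 7 rose. AT5TE72200 was higher, with 454, 426, 483 and 511 counts in *morc1/med13*, against 364, 375, 344 and 330 in *morc1*, but short of 1.5-fold (0.49 ± 0.07, adjusted p = 0.00036).

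In the light experiment 131 TEs passed the filter, more than in any other set, and *med12* was compared with Col-0 under both conditions. After 24 h of dark 7 TEs rose and 17 fell in *med12*, where 5.71% of all 21202 features rose and 7.69% fell (13.4% in all). After 15 min of light 13 rose and 10 fell, where 5.06% rose and 9.1% fell (14.2% in all). In the dark 7 of the 131 TEs met the filter only in *med12* and 24 only in Col-0, and in light 26 and 15. More falls were thus favoured in the dark and more rises in light. The median log2 fold change of the 131 TEs was -0.22 in the dark and -0.01 in light, and that of all features was 0.00 in both. Reads on no feature were 3.47% to 4.03% of counts in *med12* and 4.22% to 5.03% in Col-0 in the dark, and 3.73% to 4.00% in *med12* and 3.45% to 4.97% in Col-0 in light.

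AT4TE12660 had the largest fall in both light conditions. It had 2, 4 and 2 counts in *med12*, against 34, 28 and 35 in Col-0, in the dark (log2 fold change -3.63 ± 0.36, edgeR adjusted p = 2.0e-11), and 1, 2 and 5, against 38, 27 and 26, in light (-3.39 ± 0.37, adjusted p = 2.6e-10). AT2TE26610 (-2.81 ± 0.40 in the dark and -2.51 ± 0.47 in light), AT3TE44900 (-1.78 ± 0.31 and -1.99 ± 0.29), AT5TE37605 (-1.67 ± 0.26 and -1.05 ± 0.25), AT5TE34945 (-1.89 ± 0.33 and -0.84 ± 0.29), AT3TE46170 (-0.98 ± 0.19 and -0.81 ± 0.20), AT5TE75800 (-1.24 ± 0.40 and -1.45 ± 0.38), AT1TE36890 (-0.88 ± 0.35 and -2.09 ± 0.44) and AT2TE69230 (-0.73 ± 0.27 and -0.98 ± 0.29) fell under both conditions as well. In each of these the libraries of the genotypes did not overlap. In the dark AT1TE36890 and AT2TE69230 each missed a threshold in 5 of 11 alternative fits.

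AT5TE36475 had 10, 19 and 13 counts in *med12*, against 3, 2 and 0 in Col-0, in the dark (2.89 ± 0.55), and 12, 11 and 7, against 3, 0 and 1, in light (2.85 ± 0.62). AT3TE46630 had 12, 6 and 10 counts, against 1, 1 and 3, in the dark (2.31 ± 0.59), and 17, 10 and 17, against 3, 0 and 1, in light (3.40 ± 0.54). AT4TE10320, AT1TE56375, AT2TE08235 and AT4TE33010 also rose under both conditions, AT4TE33010 to 1.82 ± 0.593 CPM in the dark and 2.86 ± 0.678 CPM in light in *med12*, against 0.917 ± 0.0257 CPM and 1.23 ± 0.312 CPM in Col-0. In all 6 the genotypes did not overlap. AT4TE33010 missed a threshold in 7 of 11 alternative fits in the dark, and AT2TE08235 in 5 of 11 in the dark and 7 of 11 in light. In light AT4TE10320 and AT1TE56375 each missed one in 4 of 11.

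The remaining calls were made under one condition only. In the dark AT4TE34565 (-1.35 ± 0.28), AT4TE13930 (-1.08 ± 0.30), AT1TE45600, AT1TE11810, AT5TE18975, AT5TE68375, AT1TE23520 and AT3TE30150 fell, the last 6 by log2 fold changes between -0.84 and -0.60 and AT5TE68375 with overlap, and AT3TE08245 rose (0.78 ± 0.21). In light AT4TE43220 fell (-1.39 ± 0.37), and AT2TE22815, AT1TE69295, AT5TE83180, AT5TE87550, AT1TE04840, AT4TE02340 and AT3TE36455 rose by 0.61 to 1.04 on the log2 scale, AT5TE83180 with overlap and named after its values were seen. Without Col-0 replicate 2 in light, 14 TEs were called in light. Whether the effect of *med12* differed between light and dark was tested by an interaction term, and edgeR called none of the 131 TEs (10 had an unadjusted p under 0.05, DESeq2 called 0), where 0.505% of all features were called.

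In Col-0 no TE rose and 7 of 131 (5.34%) fell after 15 min of light, where 2.88% of all features were called, 1.94% up and 0.934% down. For the rises this 0 stands beside 22 TEs at an unadjusted p under 0.05 in either direction, and DESeq2 called 1 TE in all. In Col-0, 6 TEs met the filter only in light and 18 only in the dark, and in *med12* 27 and 11. This favoured falls among the TEs tested in Col-0. AT5TE68375 had 12, 12 and 14 counts in light, against 31, 34 and 19 in the dark (log2 fold change -1.19 ± 0.27, edgeR adjusted p = 0.0011), and AT4TE34565 had 10, 8 and 18, against 31, 23 and 23 (-1.14 ± 0.28). AT4TE83085, AT1TE71080, AT3TE30150, AT4TE63170 and AT5TE64925 were the others, the last 2 with libraries that overlapped, and AT5TE64925 was named after its values were seen. Col-0 replicate 3 in light had a TE share of 0.0905% and 4.97% of reads on no feature, against 0.0733% and 0.0761% of TE counts and 3.49% and 3.45% of reads on no feature in the other 2. Without that library 23 TEs were called, without replicate 1 in light 4, and without replicate 2 in light 3. In *med12* 1 TE was called, AT5TE64390, with 14, 16 and 9 counts in light, against 28, 23 and 23 in the dark (-0.82 ± 0.26, adjusted p = 0.047), where 1.77% of all features were called, 0.783% up and 0.986% down, and 10 of its 11 alternative fits missed the threshold.

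Over the 11 comparisons 68 TEs were called at least once, of 149 tested at least once. Of the 68, 37 were called in 1 comparison, 19 in 2 and 12 in 3 or more. AT4TE12660 was called in 6, AT2TE26610, AT4TE33010 and AT5TE34945 in 5, and AT3TE44900, AT3TE46630, AT4TE10030, AT4TE10320 and AT5TE37605 in 4.

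**Figure D4:**
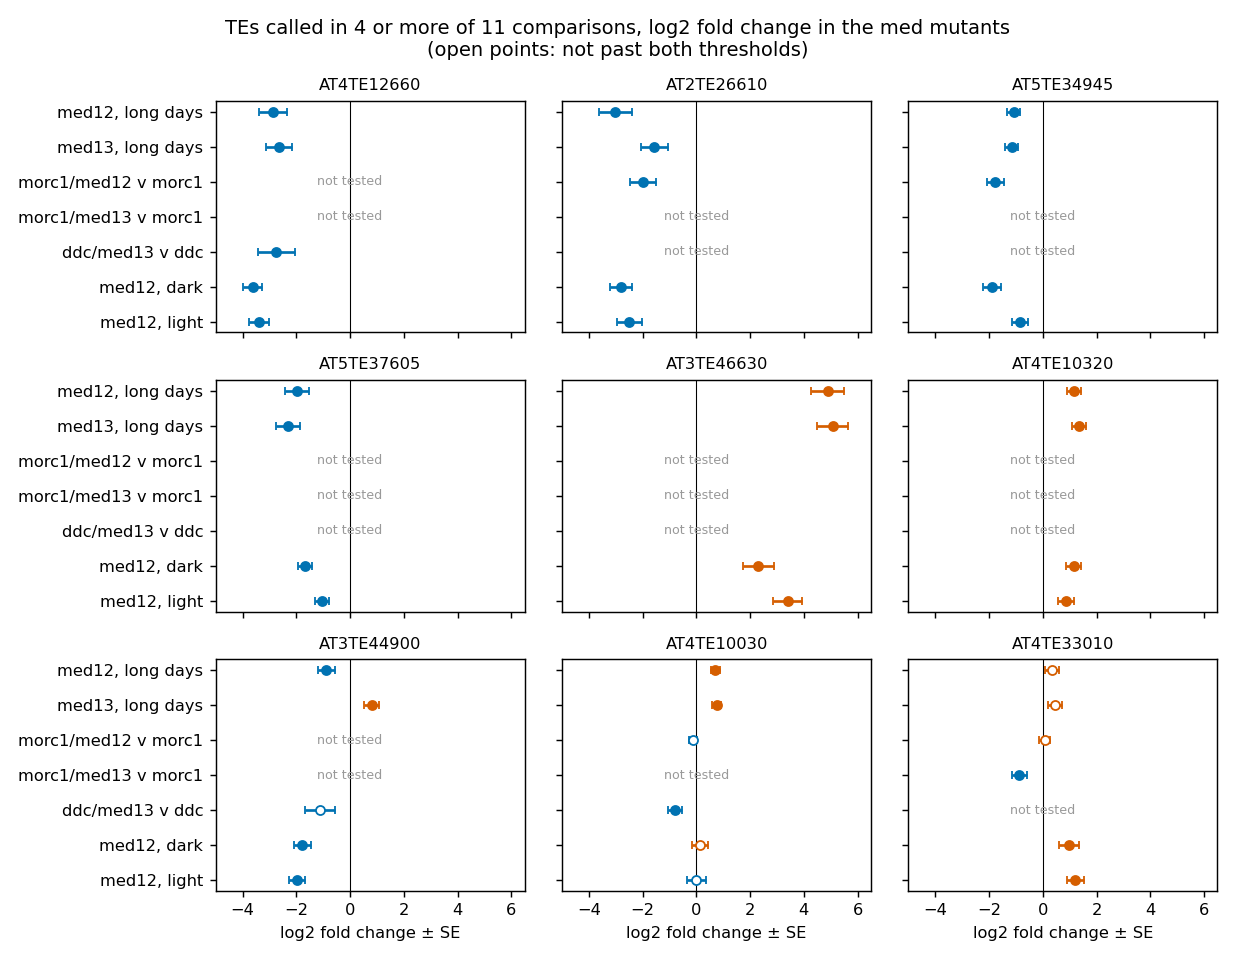
Log2 fold change with its SE for the 9 TEs called in 4 or more of the 11 comparisons, in the 7 comparisons of a *med* mutant with its control. Filled points passed both thresholds, open points did not, and colours give the sign. AT4TE12660 sits between -3.63 and -2.64 wherever it was tested, AT3TE46630 between 2.31 and 5.07, and AT3TE44900 on both sides of 0.

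Some comparisons share no library, and their calls can be set side by side, although the alleles can differ, since *morc1/med12* and *ddc/med13* carry Cas9 alleles and *med12* and *med13* T-DNA insertions. Among the 59 TEs tested both for *med12* in long days and for *med12* in the dark, 8 and 10 fell, and 6 fell in both, which is 75% of the first list and 60% of the second, beside 58.2% and 42.7% for the falls over all features tested in both. They are AT2TE26610, AT2TE69230, AT3TE44900, AT4TE12660, AT5TE34945 and AT5TE37605. Of the 5 and 4 that rose, 2 were shared (40% and 50%, beside 32.1% and 42.6% over all features), AT3TE46630 and AT4TE10320. Among 32 TEs tested both for *med12* in long days and for *morc1/med12*, the same 2 fell in each, AT2TE26610 and AT5TE34945 (100% of either list, beside 41% and 54.2% over all features). The call of AT2TE26610 in *morc1/med12* was missed in 5 of 10 alternative fits. For *med13* in long days and *morc1/med13*, 32 TEs were tested in both and 1 of 4 rises was shared, AT2TE16940 (25% of either list, beside 48.6% and 36.7%). For *med13* in long days and *ddc/med13*, 25 were tested in both. The 1 that fell in *med13*, AT4TE12660, was among the 3 that fell in *ddc/med13* (100% and 33.3%, beside 59.2% and 42.9% over all features), and none of the 5 that rose in *med13* rose in *ddc/med13*. AT4TE10030 was called in opposite directions, with log2 fold changes of 0.76 in *med13* against Col-0 and -0.81 in *ddc/med13* against *ddc*. AT5TE32420, which rose in *med13* (1.17), had a log2 fold change of -0.90 in *ddc/med13* that was not past the threshold (edgeR adjusted p = 0.103). Nor were those of AT3TE44900 (-1.12, edgeR adjusted p = 0.140), AT1TE06650 (-0.10) and AT3TE08245 (0.42), which also rose in *med13*. With lists of 1 to 10 TEs these shares are counts of few elements, and their differences from those over all features were not tested.

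Genes of the TE silencing machinery were also counted. Of 29 such genes, 27 were tested, and in *ddc* 1 rose and 7 fell (edgeR, adjusted p under 0.05 and over 1.5-fold), with a median log2 fold change of -0.13 beside 0.01 over all features. Since 12.4% of all features rose and 14.8% fell in *ddc*, 27.3% in all, the number called on this list is near that of the background. The rise was *MORC4* (0.59). The 7 include *CMT3* and *DRM2*, which the genotype disrupts, *ROS1*, a DNA demethylase with 0.253 CPM in *ddc* and 90.2 CPM in wild type (-8.23), *DDM1*, a chromatin remodeller (-1.27), *MET1*, which maintains CG methylation (-0.94), *AGO4* (-0.63) and *IBM1*, a histone demethylase (-0.63). In *ddc/med13* against *ddc*, where 7.9% of all features rose, 3 of 26 rose, *DDM1* (0.93), *MET1* (0.65) and *NRPE1*, the largest subunit of RNA polymerase V (0.63). In *morc1* the 1 that fell was *MORC2* (-1.64). *med12* lowered *MORC2* (-0.67) in long days and raised *NRPD1* in the dark (0.79) and in light (0.83), *ROS1* in the dark (0.61) and *NRPE1* in light (0.66), and *med13* raised *ROS1* (0.64) and lowered *MORC2* (-0.60). *ROS1* also rose in *morc1/med13* against *morc1* (0.62). None of these genes was called in *morc1/med12* or between light and dark. Of the 27 tested, 1 rose and 1 fell in *med13*, and 1 fell in *med12* in long days. In *med12* 2 rose in the dark and 2 in light. Of all features 13.4% were called in *med13*, and 12.8%, 13.4% and 14.2% in *med12* in long days, dark and light. For *morc1* (1 fall) it was 2.57% and for *morc1/med13* (1 rise) 18.9%.

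Markers of other tissues were also counted. All 3 seed storage and oil body genes on the marker list rose in *med12* and *med13* in long days and in *med12* in the dark and in light. Their summed level was 33.2 to 327 CPM in *med12* and 30.7 to 501 CPM in *med13*, against 1.45 to 8.21 CPM in Col-0 in long days, and 144 to 274 CPM in *med12*, against 0.456 to 2.05 CPM in dark-treated Col-0. It was 94.99 to 793 CPM in *morc1/med13*, against 14.2 to 110 CPM in *morc1* replicates 1 to 4, in *morc1/med12* 35.5 to 305 CPM, against 5.97 to 44.5 CPM in its controls, in *ddc/med13* 4.63 to 232 CPM, against 1.01 to 8.71 CPM in *ddc*, and in *ddc* 1.01 to 8.71 CPM, against 0.911 to 3.29 CPM in *SDC:GFP* wild type. All 3 rose in *morc1/med13*, 1 of 3 in *morc1/med12* and the 1 that could be tested in *ddc/med13*. In *morc1* replicates 1 to 4 that sum was 14.2 to 110 CPM, against 0.911 to 3.29 CPM in *SDC:GFP* wild type, and the 1 seed marker that could be tested there rose (log2 fold change 5.17). After light all 3 were lower in *med12*, at 58.7 to 82.6 CPM, against 144 to 274 CPM in the dark. No seed marker was at 0 in any condition. Of 3 root markers, only *NRT2.1* was called in *ddc* (log2 fold change -5.15) and in *morc1/med13* (-2.23), lower in both. The medians of that list were -0.06 and -0.09, and 27.3% and 18.9% of all features were called. Of 4 green shoot markers, only *LHCB2.1* was called in *med12* (1.40) and *med13* (1.09) in long days, higher in both. The medians were 0.03 and -0.05, and 12.8% and 13.4% of all features were called. The part of these markers in the TE results was not tested.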

How the data were processed

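The authors deposited 1 table of raw counts per library. According to the methods, stranded poly(A) libraries were sequenced as 50-base single-end reads, trimmed, aligned to TAIR10 with STAR, stripped of duplicates with Picard and counted with htseq-count (HTSeq 0.6.1 in the submitters' processing notes) on Araport11 features. In its union mode a read on 2 features is counted on neither. How reads that align to several places were treated is not given in the sources used here, so values of near-identical TE copies are uncertain. Tally lines, present in 44 files, were kept out of library sizes.

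Each comparison was fitted on its own groups with edgeR 4.0.16 (R 4.3.3): filterByExpr, TMM, quasi-likelihood test, Benjamini-Hochberg adjustment over all features tested. A feature was called past 1.5-fold at an adjusted p under 0.05. SE is the log2 fold change divided by the square root of F. CPM uses TMM factors from all 50 libraries. The code was tested on simulated data. TE shares were compared by exact two-sided permutation tests. Lower bounds use a floor of 3 counts per library. Intervals and floors cover counting error only, since reads are not independent molecules.

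TEs named are, in each comparison, up to 15 rises and 15 falls that were called, did not overlap between groups and had at least 1 CPM in the higher group, or every call where there were fewer than 5, with the 10 most abundant TEs and those called in 3 or more comparisons. The share of all features without overlap between groups is not given, so lack of overlap is a description. Genes near named TEs and transposable element genes were not used here. The members, lists and rules were chosen with earlier results of these data known. Alternatives were DESeq2 1.42.0, RLE size factors, other filters, another control, a shared fit, a replicate block and leaving out each library. The direct comparison of *ddc* with *morc1*, the shares without AT1TE24850 and the overlaps over all features were added after the data were seen.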

Additional observations from a re-analysis of the deposited data

Results flagged for a closer look

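In 99 groups of 4 libraries, 10 held a library whose gap to the nearest other was large for the range of the group by Dixon's criterion, which chance alone meets in about 1 in 20 groups. *ddc* replicate 4 had a TE share of 0.0925%, against 0.0706% to 0.0733% in the other 3, and in the same library AT4TE12660 had 12.8 CPM, against 3.42 to 4.88 CPM, and AT2TE08225 had 7.39 CPM, against 6.22 to 6.27 CPM. AT4TE10030 stood apart in 3 groups. It had 8.71 CPM in *ddc* replicate 2, against 9.38 to 9.41 CPM in the other *ddc* libraries, 6.94 CPM in *med12* replicate 2, against 6.31 to 6.38 CPM, and 5.97 CPM in *med13* replicate 4, against 6.94 to 7.10 CPM. AT4TE63170 had 16.4 CPM in *SDC:GFP* wild-type replicate 1, against 8.09 to 9.33 CPM in the other 3. In long-day Col-0, AT2TE22815 had 4.20 CPM in replicate 3, against 3.02 to 3.14 CPM, and AT5TE32420 had 1.26 CPM in replicate 2, against 2.05 CPM or more in the other 3. AT3TE30150 had 4.11 CPM in *morc1/med13* replicate 1, against 3.58 to 3.65 CPM in the others.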

How the results depend on the processing

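Of 111 calls of named TEs, 70 passed both thresholds in every alternative and 41 missed one at least once. The filter on low counts set the numbers of TEs called, by construction, since more TEs were then tested. With a minimum count of 3, and then with no filter, 41 and 87 TEs rose and 34 and 51 fell in *ddc*, 3 and 12 rose and 2 and 3 fell in *morc1*, 16 and 18 rose and 14 and 20 fell in *med12*, 20 and 23 rose and 10 and 20 fell in *med13*, 1 and 3 rose in *morc1/med12* (7 fell with no filter), 7 and 16 rose and 16 and 31 fell in *morc1/med13*, 6 and 7 rose and 17 and 22 fell in *ddc/med13*, 40 and 48 were called in *med12* in the dark, 41 and 48 in light, and 0 and 0 for light in *med12*. Shares of all features called under the alternatives are not given, so none of these counts is set against a background. For the settings that follow the cause was not tested. DESeq2 gave 58 rises and 27 falls in *ddc*, 4 rises in *morc1*, 16 rises in *med12*, 20 rises and 13 falls in *med13*, 2 rises in *morc1/med12*, 7 rises and 10 falls in *morc1/med13*, 2 rises and 14 falls in *ddc/med13*, 1 call for light in Col-0 and 0 in *med12*. With long-day Col-0 as the control, 25 TEs rose and 3 fell in *ddc*, 26 rose and 7 fell in *morc1*, and the log2 fold change turned positive for AT4TE63170 (0.16), AT5TE81110 (0.27), AT2TE41390 (0.36), AT1TE69295 (0.28), AT4TE59630 (0.30) and AT1TE17050 (1.18) in *ddc* and for AT4TE33010 (0.20) in *morc1*. One fit of the 5 *SDC:GFP* groups gave 23 rises and 22 falls in *ddc*, 0 falls in *morc1*, 8 falls in *morc1/med13* and 2 rises in *ddc/med13*. Replicate numbers did not pair the libraries (correlations of deviations between -0.13 and 0.17). With them as a replicate block, 5 TEs fell in *med12*, 0 fell in *morc1/med13* and 0 were called for light in *med12*, and 104 of 107 named calls were kept. *morc1/med12* and its controls share no numbers.

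Leaving out 1 library at a time, 14 to 22 TEs rose in *ddc*, 0 to 1 fell in *morc1*, 5 to 8 fell in *med12*, 0 to 1 rose and 2 to 4 fell in *morc1/med12*, 4 to 7 rose and 0 to 4 fell in *morc1/med13*, 1 to 2 rose and 3 to 6 fell in *ddc/med13*, and 14 to 28 were called in *med12* in light, 3 to 23 for light in Col-0 and 0 to 1 for light in *med12*. In *med12* in long days 6 to 7 rose, against 5 with all libraries. The filter on low counts was applied anew in each of these fits, so the TEs tested could change too. Without AT5TE72200 the share of *morc1/med13* minus that of *morc1* was -0.0024 percentage points. Depth limits detection. With 3 counts in any 1 library, and then at 1.08 CPM in every library, TEs detected numbered 296 and 50 in *med12*, 321 and 59 in *med13*, 305 and 52 in Col-0, 374 and 113 in *med12* and 417 and 97 in Col-0 in light, 387 and 95 in *med12* and 420 and 113 in Col-0 in the dark, 252 and 48 in *morc1/med12* and 267 and 56 in its controls. With 3 counts in any library they numbered 254 in *ddc/med13*, 245 in *ddc*, 233 in *morc1/med13*, 257 in *morc1* replicates 1 to 4 and 248 in *SDC:GFP* wild type.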
